A study of Mus musculus with 2 samples.

Results

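A set of 9 genes of extracellular nucleotide and adenosine handling was followed across the cells of the mouse hippocampus: Entpd2, Alpl, Nt5e, Enpp1, P2ry1, Adora1, Panx1, Slc29a1 and Slc17a9. They were taken by symbol from 32285 genes in the count matrices of 2 single-cell RNA-seq libraries, and all 9 of 9 had unique molecular identifiers (UMIs, each 1 captured RNA molecule) in both libraries. The 60TM library came from 7-week-old GFAP-hGFAP mice on a C57BL6/J background, a line that carries a human GFAP transgene and is studied as a model of Alexander disease, an astrocyte disorder caused by mutations in GFAP. The WT library came from C57BL6/J mice of the same age. Each genotype was 1 library pooled from 3 mice, and barcodes were not assigned to mice, so no difference between genotypes could be tested against the variation between animals. The 95% intervals given here cover counting error only.

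After filtering, 7574 cells with 70610233 UMIs remained in the 60TM library and 6086 cells with 57480919 UMIs in the WT library, with medians of 7494.5 and 7212 UMIs per cell, and 20 barcodes occurred in both libraries. Clusters were named from marker genes with the 9 genes and 59 purine genes, which include them, kept out of the clustering genes. Astrocytes numbered 2008 in 60TM and 948 in WT. All 8 astrocyte markers were detected in both, with summed levels of 22728 CPM (the UMIs of a gene in a class, scaled to a common total of UMIs) in 60TM and 30149 CPM in WT, while the microglial markers summed to 158 CPM in 60TM astrocytes and 124.2 CPM in WT astrocytes. Choroid plexus markers summed to 470 CPM in 60TM astrocytes and 29.1 CPM in WT astrocytes, and their part in the results was not tested; Entpd2 and Alpl had 5 and 0 UMIs in 60TM choroid plexus cells and 0 UMIs each in WT choroid plexus cells. Gfap was 3.38 times as high in 60TM as in WT astrocytes (1335 and 395 CPM). The matrices hold no separate row for the human transgene, so its part in the Gfap count cannot be told apart. One astrocyte cluster, led by Lcn2, Cxcl10 and C3, held 537 cells of the 60TM library (26.7% of its astrocytes) and 0 cells of the WT library.

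Cells release ATP through channels and vesicles, and enzymes on the outer membrane break it down step by step to adenosine. ATP and ADP act on P2 receptors and adenosine on P1 receptors, so the enzymes decide which signal a neighbouring cell receives. Entpd2 encodes NTPDase2, which turns ATP into ADP and is slow to go further. Enpp1 splits ATP to AMP and pyrophosphate, and Nt5e (CD73) and Alpl (tissue-nonspecific alkaline phosphatase) convert AMP to adenosine. P2ry1 is an ADP receptor coupled to calcium release and Adora1 the inhibitory A1 adenosine receptor. Panx1 forms a membrane channel that passes ATP, Slc17a9 loads ATP into vesicles, and Slc29a1 is the equilibrative nucleoside transporter that moves adenosine across the membrane.

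Entpd2 was the 1 gene of the 9 whose highest class was astroglial in both libraries. It was highest in radial glia-like cells, the stem-cell-like glia of the dentate gyrus, and next in astrocytes, and these classes together held nearly all of its counted molecules. Radial glia-like cells had 127.5 CPM in 60TM and 238 CPM in WT, astrocytes 90.1 CPM in 60TM and 172 CPM in WT, and in each library the interval of the first lay above that of the second. The class next below differed between libraries, with 24.5 CPM in 60TM Cajal-Retzius cells (14 UMIs) and 27.8 CPM in WT pericytes (10 UMIs). Microglia had 0.583 CPM in 60TM and 0.299 CPM in WT.

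**Figure D1:**
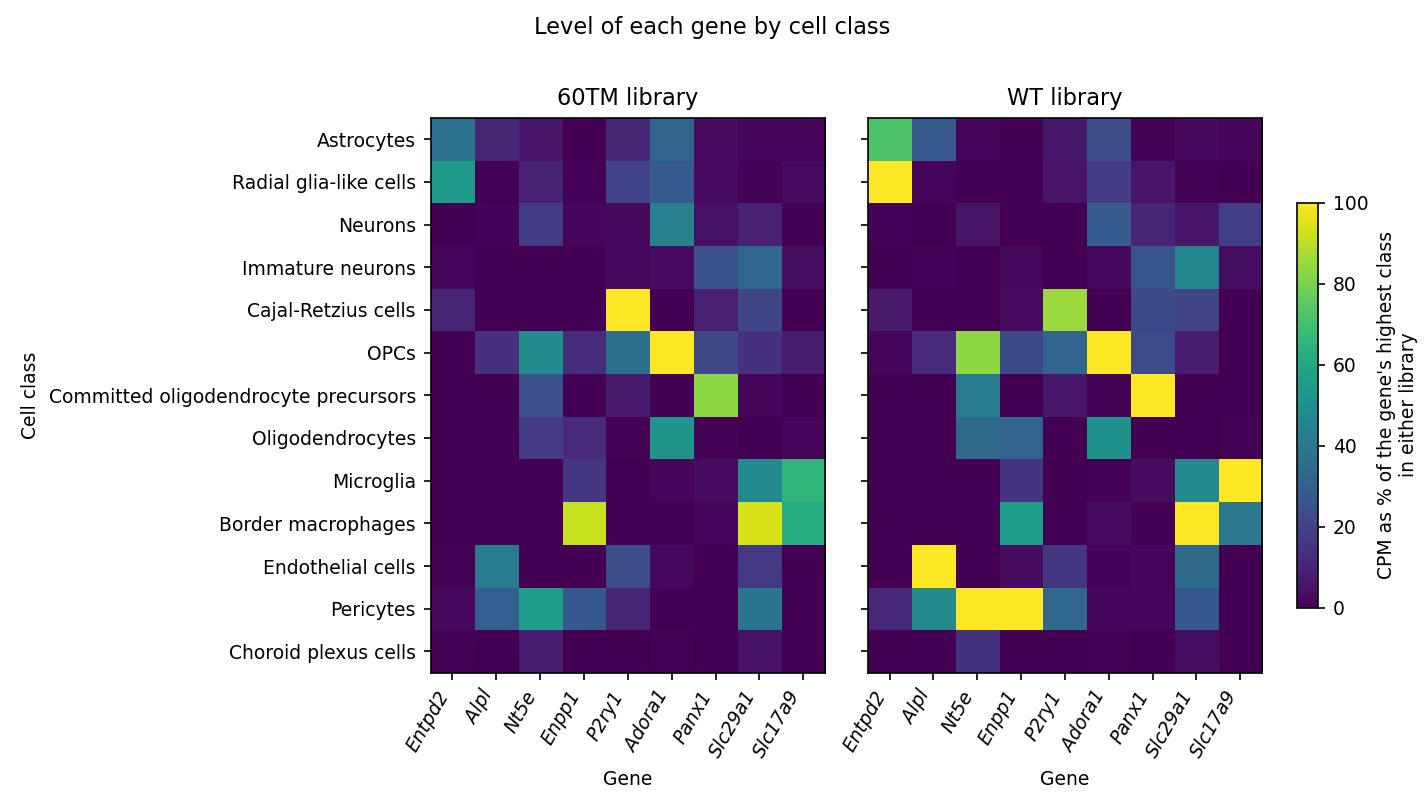
Rows are the 13 named cell classes that reached 50 cells in both libraries, columns the 9 genes, and the colour is a gene's CPM as a percentage of its highest class in either library, with 60TM on the left and WT on the right. Entpd2 is bright in radial glia-like cells and astrocytes, and the other genes are highest in other classes; the pericyte values for Nt5e and Enpp1 rest on 2 UMIs each in 60TM, against 7 and 14 UMIs in WT.

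Entpd2 lies on chromosome 2 at chr2:25395874-25401321 on the plus strand (GRCm38, GENCODE M21) and overlaps the neighbouring gene Npdc1 on the same strand. The last exon of Entpd2, where 3' reads gather, has 552 bases, of which 381 lie outside annotated Npdc1 exons. Npdc1 itself had 116 CPM in 60TM astrocytes and 106 CPM in WT astrocytes, a ratio of 1.10 (95% interval 1.003 to 1.204). On the same build, Alpl lies at chr4:137741733-137796384, Enpp1 at chr10:24637914-24712159, Adora1 at chr1:134199223-134235431, Panx1 at chr9:15002128-15045478 and Slc29a1 at chr17:45585200-45599606, all on the minus strand. Nt5e lies at chr9:88327197-88372092, P2ry1 at chr3:61002795-61008982 and Slc17a9 at chr2:180725263-180742280, all on the plus strand, and all 9 genes are annotated as protein coding. P2ry1 overlaps Gm37035, Adora1 overlaps Mybph and Slc29a1 overlaps Gm17080 on the opposite strand. No source used here states how reads in overlapping genes were counted. Reads in bases that Entpd2 shares with Npdc1, on the same strand, may have been left out of the Entpd2 count. The RefSeq table of sequences around gene starts (GRCm38.p6, windows of 300 bases) held 17 windows for 8 of the 9 genes. A window each of Entpd2, Alpl and Panx1 is printed because these 3 genes were called higher or lower in 60TM astrocytes by the rule given with the counts of calls. A pair of motifs was marked in capitals on either strand: the AP-1 site TGAGTCA and the GC box GGGCGG, where overlapping GC boxes run together. The search also covered the cyclic AMP response element, the STAT site and the NF-kB site. These had no match in any window of Entpd2, Alpl and Panx1. The windows are chr2:25395624-25395923 (plus strand) for Entpd2, chr4:137796335-137796634 (minus strand) for Alpl, and chr9:15045429-15045728 (minus strand) for Panx1, each written 5′ to 3′ on its gene's strand.
Entpd2: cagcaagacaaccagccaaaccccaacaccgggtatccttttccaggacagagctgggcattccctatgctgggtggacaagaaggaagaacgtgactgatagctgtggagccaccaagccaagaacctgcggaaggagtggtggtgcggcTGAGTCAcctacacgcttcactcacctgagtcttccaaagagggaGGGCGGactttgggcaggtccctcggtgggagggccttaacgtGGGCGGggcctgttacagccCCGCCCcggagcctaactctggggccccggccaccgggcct
Alpl: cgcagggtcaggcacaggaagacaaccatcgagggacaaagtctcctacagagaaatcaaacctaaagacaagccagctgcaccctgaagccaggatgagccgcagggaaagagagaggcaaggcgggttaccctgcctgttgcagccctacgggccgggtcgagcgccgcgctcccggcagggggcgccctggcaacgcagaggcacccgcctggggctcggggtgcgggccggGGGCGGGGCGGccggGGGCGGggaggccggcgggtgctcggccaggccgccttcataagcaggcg
Panx1: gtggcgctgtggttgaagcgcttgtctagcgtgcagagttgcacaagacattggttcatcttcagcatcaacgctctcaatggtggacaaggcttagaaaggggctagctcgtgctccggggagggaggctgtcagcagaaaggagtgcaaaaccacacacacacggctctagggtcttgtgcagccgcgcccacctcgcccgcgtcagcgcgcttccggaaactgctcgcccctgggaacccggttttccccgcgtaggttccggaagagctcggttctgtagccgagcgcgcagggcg
The Entpd2 window held 1 AP-1 match, which begins 99 bases before the start, and 3 GC boxes. The printed Alpl window held 3 GC boxes and no AP-1 match, and the Panx1 window held neither motif. Another Alpl window, chr4:137766426-137766725, held neither motif and is not printed. AP-1 matches occurred in 5.20% and GC boxes in 35.7% of all 32851 windows in the table. A match describes the letters of the window and not the binding of a factor.

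In 60TM astrocytes, Entpd2 was at about 0.5 of its WT level. The sum was 1435 UMIs (90.1 CPM, interval 85.5 to 94.9) in 60TM and 1025 UMIs (172 CPM, 161 to 182) in WT, a ratio of 0.525 (0.484 to 0.570). With each cell thinned to 2000 UMIs, 17.3% of 1817 60TM astrocytes and 28.1% of 883 WT astrocytes had an Entpd2 UMI; 191 60TM and 65 WT astrocytes were too shallow and were left out. Unthinned, the shares were 44.4% in 60TM and 57.2% in WT. In microglia thinned to the same depth, the share was 0.243% in 60TM and 0.0481% in WT; the unthinned median depths of astrocytes were 7159.5 UMIs in 60TM and 5984 in WT, and those of microglia 6869.5 and 5637.

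The lower level was also present outside the Lcn2 cluster. Entpd2 had 74.6 CPM in the Lcn2 cluster and 99.8 CPM in all other 60TM astrocytes, and without that cluster the ratio of 60TM to WT was 0.582 (0.532 to 0.636). In the largest astrocyte cluster, led by Gjb6, F3 and Slc6a11, Entpd2 had 102 CPM in 1179 60TM cells and 188 CPM in 591 WT cells, a ratio of 0.544 (0.493 to 0.600). In the cluster led by Grin2c, Lcat and Aqp4, it had 100 CPM in 66 60TM cells and 143 CPM in 303 WT cells, a ratio of 0.700 (0.487 to 0.982). The shallow cluster led by Aldh1a1 and Gfap held only 19 Entpd2 UMIs in 60TM and 5 in WT. Radial glia-like cells, named by other markers, gave nearly the same ratio as astrocytes, 0.535 (0.458 to 0.626), with 410 UMIs in 383 60TM cells and 276 UMIs in 144 WT cells.

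Alpl was lower still in 60TM astrocytes. It had 117 UMIs (7.35 CPM) in 60TM and 119 UMIs (19.9 CPM) in WT, a ratio of 0.369 (0.283 to 0.480), and 0.491 (0.372 to 0.648) without the Lcn2 cluster. By level Alpl was highest in endothelial cells, with 29.4 CPM in 60TM and 71.0 CPM in WT, also lower in 60TM (ratio 0.414, 0.266 to 0.639). By molecules astrocytes held the most over the named classes, 66.9% in 60TM and 50.9% in WT. Endothelial cells held 22.3% in 60TM and 22.2% in WT. Alpl in astrocytes stood at 25.0% of its endothelial level in 60TM and 28.1% in WT, whereas the endothelial marker Cldn5 stood at 0.0572% and 0.0519%. Radial glia-like cells had 1 Alpl UMI in 60TM and 1 in WT, so Alpl and Entpd2 did not share a cell distribution within the astroglial classes.

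Panx1 was the 1 gene of the 9 called higher in 60TM astrocytes, and the difference sat in the Lcn2 cluster. It had 80 UMIs (5.02 CPM) in 60TM astrocytes and 7 UMIs (1.17 CPM) in WT astrocytes, a ratio of 4.29 (1.99 to 11.01). The Lcn2 cluster held 88.8% of the 60TM molecules, at 11.6 CPM, against 0.918 CPM in all other 60TM astrocytes. Without the Lcn2 cluster the ratio was 0.783 (0.260 to 2.47), from 9 UMIs in 60TM and 7 in WT, so a difference there was not detectable at this depth.

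Among the receptors, Adora1 had 729 UMIs (45.8 CPM) in 60TM astrocytes and 198 UMIs (33.1 CPM) in WT astrocytes. Its ratio of 1.38 (1.18 to 1.62) was above 1 but short of the 1.5-fold used for calls, and was 1.35 (1.14 to 1.61) without the Lcn2 cluster. P2ry1 had 83 UMIs (5.21 CPM) in 60TM and 20 UMIs (3.35 CPM) in WT, with an interval that included 1 (ratio 1.56, 0.947 to 2.68). In radial glia-like cells both receptors were higher in 60TM: Adora1 had 40.4 CPM in 60TM and 25.0 CPM in WT (ratio 1.62, 1.07 to 2.51), and P2ry1 had 33 UMIs in 60TM and 3 in WT (ratio 3.96, 1.24 to 20.2). In that class 2 of 4 measured genes were called higher and 1 lower, where 3.62% and 5.61% of all measured genes were called higher and lower. The remaining 4 genes were scarce in astrocytes. Slc29a1 had 35 UMIs in 60TM and 20 in WT (ratio 0.657, 0.369 to 1.20), Nt5e 19 UMIs in 60TM and 2 in WT (ratio 3.56, 0.860 to 31.6), Slc17a9 3 in 60TM and 1 in WT, and Enpp1 2 in 60TM and 0 in WT.

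**Figure D2:**
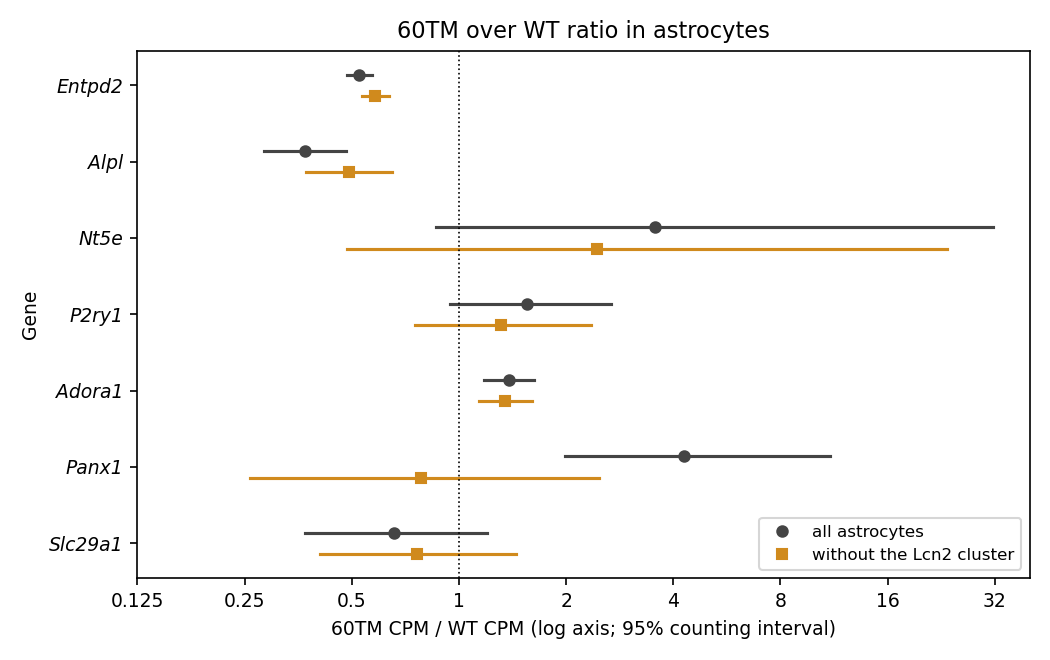
Points are ratios of 60TM to WT CPM in astrocytes on a log axis with 95% counting intervals, for the 7 genes with at least 20 UMIs over both libraries; circles take all astrocytes and squares leave out the Lcn2 cluster. Entpd2 and Alpl stay below 1 in both sets, Adora1 stays above 1, and Panx1 drops to 0.783 when the Lcn2 cluster is left out.

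A gene was called higher or lower when its ratio was at least 1.5-fold, its interval lay beyond 1 and it had at least 20 UMIs over both libraries. By this rule 1 of the 7 measured genes was higher in 60TM astrocytes (Panx1) and 2 were lower (Entpd2 and Alpl), where 8.70% of 13423 measured genes were called higher and 7.55% lower. Without the Lcn2 cluster 5 genes were measured, 0 were higher and 2 lower, where 3.55% and 6.05% of all measured genes were called. Calls of this kind were therefore common in the library, and the count for the 9 genes is a description. Of the wider list of 59 purine genes, 37 were measured in astrocytes, 2 were higher in 60TM and 8 lower. Without the Lcn2 cluster 0 were higher and 6 lower of 34 measured. The median log2 ratio of those 37 was −0.15, against −0.03 for all measured genes. Besides Panx1, Ampd3, an AMP deaminase, was higher (40.5 CPM in 60TM and 26.3 CPM in WT), with a ratio of 1.01 (0.828 to 1.24) without the Lcn2 cluster. Lower besides Entpd2 and Alpl were Gja1, the connexin 43 of gap junctions and hemichannels (1541 CPM in 60TM and 2909 CPM in WT, ratio 0.530), Ak1 (adenylate kinase, ratio 0.561), the nucleoside transporter Slc29a2 (0.573), the intracellular Entpd7 (0.642), Calhm2 (0.457) and Entpd1 (0.634). Without the Lcn2 cluster Slc29a2 (0.712), Entpd7 (0.703) and Entpd1 (0.770) were no longer called.

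Entpd1, which takes ATP through to AMP, was a microglial gene, with 349 CPM in 60TM and 378 CPM in WT microglia. In astrocytes it stood at 3.35% of the microglial level in 60TM and 4.87% in WT, above the 0.495% and 0.461% of the microglial receptor P2ry12. Adk, which removes adenosine inside the cell, was highest in astrocytes and nearly equal between libraries (353 CPM in 60TM and 359 CPM in WT, ratio 0.986, 0.938 to 1.04). The adenosine receptor Adora2b was also highest in astrocytes, at 110 CPM in 60TM and 81.4 CPM in WT (ratio 1.35, 1.22 to 1.496). All 3 measured adenosine receptors and all 4 measured P2Y receptors stayed short of a call in all astrocytes. Without the Lcn2 cluster, P2ry12 was called lower. Free RNA, shed by other cells, was estimated at 2.46% of astrocyte UMIs in 60TM and 1.72% in WT. Its part in the P2ry12 call was not tested.

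Astrocytes were next split by their own Gfap and Lcn2 molecules after thinning each cell to 2000 UMIs. Cells with an Lcn2 UMI were called Lcn2-positive, and the rest Gfap-zero (0 Gfap UMIs), Gfap-low (1 or 2) or Gfap-high (3 or more). These are ranges of a count and not cell types: 261 of 432 Gfap-high and 226 of 587 Gfap-low cells of 60TM lay within 1 UMI of the Gfap limit, as did 58 of 82 and 60 of 221 in WT, and 83 of 306 Lcn2-positive cells had a single Lcn2 UMI. The states held 492, 587, 432 and 306 cells of 60TM from Gfap-zero to Lcn2-positive, and 580, 221 and 82 cells of WT with no Lcn2-positive cell.

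Entpd2 was lower in 60TM in every state that both libraries held. In 60TM it had 98.7 CPM in Gfap-zero, 102 in Gfap-low, 81.8 in Gfap-high and 77.7 in Lcn2-positive cells. In WT it had 174 CPM in Gfap-zero, 166 in Gfap-low and 183 in Gfap-high cells. The ratio of 60TM to WT was 0.567 (0.497 to 0.647) in Gfap-zero, 0.614 (0.524 to 0.720) in Gfap-low and 0.447 (0.353 to 0.569) in Gfap-high cells. Gfap-zero cells are those with no Gfap UMI left after thinning, and their full counts still held 259 CPM of Gfap in 60TM and 110 CPM in WT. With Gfap-high set at 5 or more UMIs, the Gfap-high ratio was 0.751, on 171 60TM and 24 WT cells. Within 60TM, Gfap-high over Gfap-zero gave 0.829 (0.710 to 0.968), and Lcn2-positive over Gfap-high 0.9502 (0.806 to 1.12). Within WT, Gfap-high over Gfap-zero gave 1.05 (0.838 to 1.31), and 0.630 with Gfap-high at 5 or more UMIs. The states drew on different clusters, since the cluster led by Grin2c held 4.63% of 60TM and 73.2% of WT Gfap-high cells. The Lcn2 cluster held 1.83% of Gfap-zero, 35.9% of Gfap-high and 90.8% of Lcn2-positive 60TM cells. In the largest cluster alone the ratio of 60TM to WT was 0.542 (0.472 to 0.623) in Gfap-zero and 0.563 (0.466 to 0.683) in Gfap-low cells. In that cluster Gfap-high cells had 93.7 CPM (80.5 to 108) in 229 60TM cells and 304.5 CPM (215 to 418) in 18 WT cells. The WT value rested on 38 UMIs and was above the 183 CPM of WT Gfap-zero cells there. The 60TM levels there were 99.3 CPM (88.8 to 111) in Gfap-zero and 108 CPM (97.2 to 119) in Gfap-low cells. Their intervals overlapped that of 60TM Gfap-high cells.

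Alpl was lower in states of higher Gfap in both libraries. In 60TM it had 15.2 CPM in Gfap-zero, 7.69 in Gfap-low, 3.57 in Gfap-high and 3.34 in Lcn2-positive cells, and in WT 23.6, 14.6 and 7.96 CPM from Gfap-zero to Gfap-high. Gfap-high over Gfap-zero was 0.235 (0.120 to 0.429) in 60TM and 0.337 (0.0899 to 0.892) in WT, the second on 4 UMIs in WT Gfap-high cells. Levels from thinned cells gave 0.407 in 60TM and 0.707 in WT. In the largest cluster alone Alpl had 16.04 CPM in Gfap-zero and 8.51 CPM in Gfap-low cells of 60TM, and 26.5 and 22.3 CPM in those of WT, the WT intervals overlapping. Alpl was lower in 60TM within Gfap-zero cells as well (ratio 0.643, 0.450 to 0.911). Panx1 ran the other way in 60TM, with 0.860 CPM in Gfap-zero, 1.92 in Gfap-low, 6.11 in Gfap-high and 11.4 in Lcn2-positive cells. The Lcn2 cluster held 1.83% of Gfap-zero, 14.1% of Gfap-low and 35.9% of Gfap-high 60TM cells. Within the largest cluster, Panx1 had only 1, 4 and 2 UMIs in 459, 471 and 229 60TM cells from Gfap-zero to Gfap-high. A rise of Panx1 with Gfap was therefore not seen outside the Lcn2 cluster at this depth. In WT the same gene had 6, 1 and 0 UMIs from Gfap-zero to Gfap-high. Lcn2-positive over Gfap-high was 1.87 (1.10 to 3.23) for Panx1, 3.42 with states set on raw UMIs and 7.06 with levels from thinned cells. After thinning, 5 of 306 Lcn2-positive (1.63%), 1 of 432 Gfap-high (0.231%) and 2 of 492 Gfap-zero cells (0.407%) of 60TM had a Panx1 UMI. These counts are too few to decide on a step from Gfap-zero to Gfap-high in thinned cells. Adora1 had 41.6, 46.6, 49.4 and 44.6 CPM from Gfap-zero to Lcn2-positive in 60TM, with overlapping intervals, and 34.3, 25.7 and 49.8 CPM from Gfap-zero to Gfap-high in WT.

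**Figure D3:**
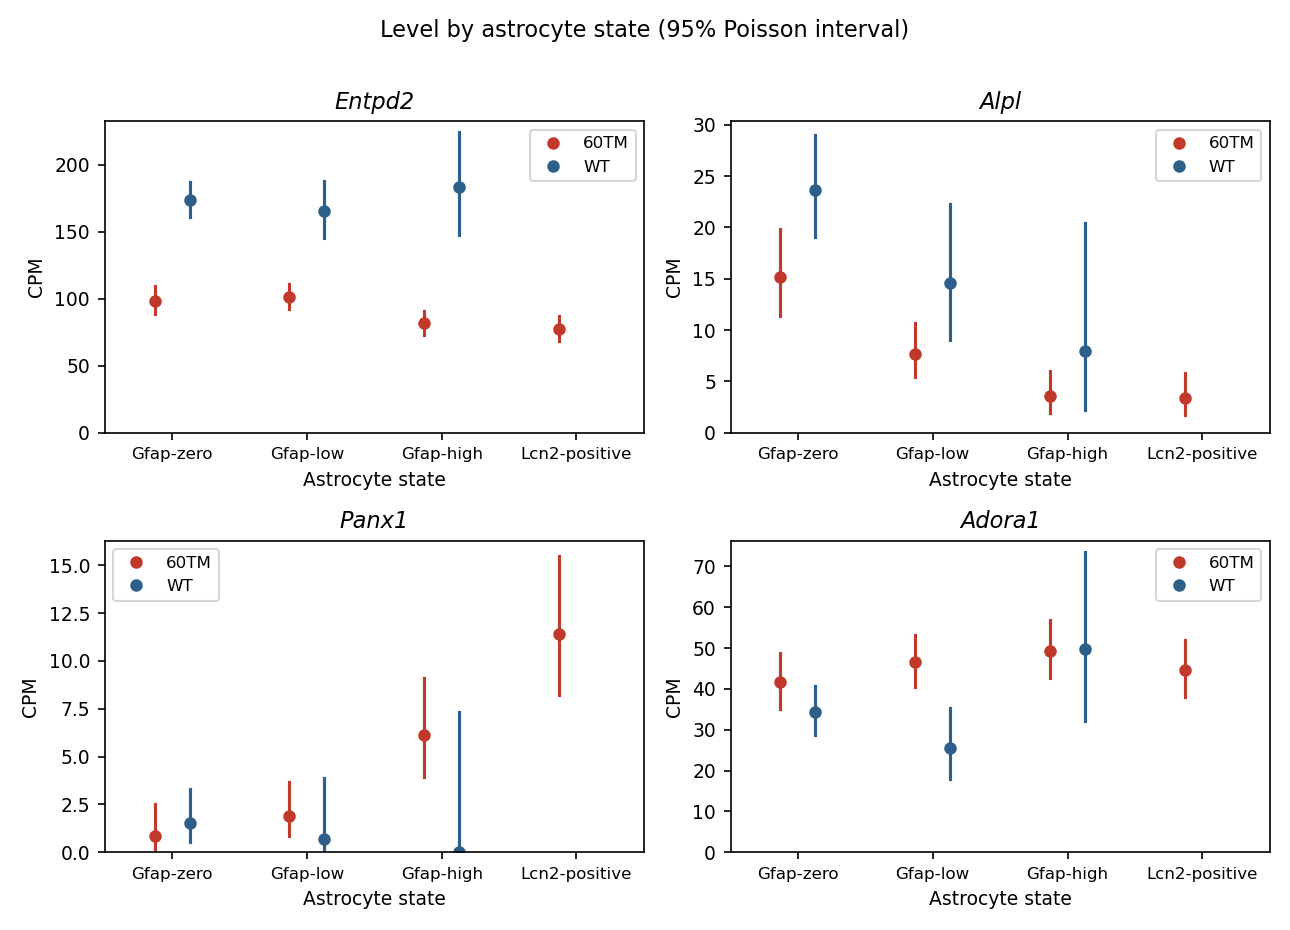
Each panel gives a gene's CPM in astrocyte states ordered by Gfap and then Lcn2, with 95% Poisson intervals, 60TM in red to the left of WT in blue; WT had no Lcn2-positive cell. Entpd2 is lower in 60TM at every shared state, Alpl is lower at higher Gfap in both libraries, and Panx1 is highest in Lcn2-positive cells.

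By the same calling rule, Entpd2 and Alpl were lower in Gfap-zero cells (2 of 5 measured genes, with 3.91% of all measured genes called lower) and 0 were higher (background 2.88%). In Gfap-low cells Entpd2 and Alpl were lower (2 of 4, background 6.22%) and Adora1 was higher (background 4.31%). In Gfap-high cells Entpd2 was lower (1 of 4, background 10.7%) and 0 were higher (background 5.43%). Within 60TM, Lcn2-positive over Gfap-high cells gave Panx1 higher and 0 lower of 5 measured genes (background 5.30% and 4.05%). Gfap-high over Gfap-zero cells gave Panx1 higher and Alpl and Slc29a1 lower of 6 in 60TM (background 11.3% and 7.82%), and 0 higher and Alpl lower of 3 in WT (background 8.97% and 4.51%). Immediate early and dissociation-linked genes also differed between these states and between the libraries. Their summed level was 723, 1172, 1975 and 2393 CPM from Gfap-zero to Lcn2-positive in 60TM, and 273, 286 and 470 CPM from Gfap-zero to Gfap-high in WT, and 14 of 15 measured were called higher in all 60TM astrocytes, with 0 lower, where 8.70% and 7.55% of all measured genes were called higher and lower. Of 10 astrocyte homeostasis genes, 3 were called lower and 0 higher in 60TM, beside the same 7.55% and 8.70%. Their part in the Entpd2 result was not tested.

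Genes with a pattern like Entpd2 were listed by Pearson correlation of log2(CPM + 5), as a description. Over 26 profiles (13 classes in both libraries, which share 2 libraries), the nearest of 10626 genes were Ccdc190 (0.930), Agt (0.922), Lcat (0.913), Pygb (0.906) and Id4 (0.904). Alpl had 0.154, Adora1 0.214 and P2ry1 0.334, so these 3 members did not share its distribution across classes. Over the 7 astrocyte state profiles the nearest were Tcn2 (0.992), H1f0 (0.990), Emx2os (0.990), Tmed1 (0.988) and Fndc4 (0.987). Tcn2, a cobalamin carrier, had 46.0 to 61.7 CPM in the 60TM states and 84.6 to 91.6 CPM in the WT states. Ccdc190, nearest by class, had 92.2 CPM in 60TM and 97.4 CPM in WT astrocytes, although Entpd2 had 90.1 CPM in 60TM and 172 CPM in WT astrocytes.

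The other genes were read in oligodendrocytes, in microglia and in the classes where they were highest. In oligodendrocytes, which held the most Nt5e molecules of any class though not its highest level, both Enpp1 and Nt5e were lower in 60TM. Enpp1 had 66 UMIs (4.80 CPM) in 739 60TM cells and 289 UMIs (12.5 CPM) in 1373 WT cells, a ratio of 0.384 (0.290 to 0.504). Nt5e had 45 UMIs (3.27 CPM) in 60TM and 156 UMIs (6.75 CPM) in WT, a ratio of 0.485 (0.340 to 0.680). Adora1 was nearly equal there, with 73.9 CPM in 60TM and 72.5 CPM in WT (ratio 1.02, 0.942 to 1.10). Its ratio differed by cluster: 1.21 (1.09 to 1.35) where Serpinb1a led, 0.914 (0.795 to 1.05) where Ptgds led and 0.836 (0.666 to 1.05) where Tac1 led. The 2 lower genes, Enpp1 and Nt5e, of 4 measured stand beside 2.63% of all measured oligodendrocyte genes called lower. Immediate early and dissociation genes were also higher in 60TM outside astrocytes, with 9 of 14 measured called higher in oligodendrocytes (background 3.76%), 7 of 16 in microglia (3.76%) and 7 of 11 in radial glia-like cells (3.62%), and their part in the differences of these classes was not tested. The order held within oligodendrocyte clusters: Enpp1 gave 0.316 (0.155 to 0.591) in the cluster led by Ptgds and 0.440 (0.318 to 0.599) in the cluster led by Serpinb1a, and Nt5e gave 0.438 (0.224 to 0.801) and 0.559 (0.335 to 0.9003). In the cluster led by Tac1, Nt5e gave 0.442 (0.173 to 1.004), and Enpp1 had only 3 UMIs in 60TM and 9 in WT.

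Microglia held most Slc17a9 molecules. Slc17a9, the vesicular nucleotide transporter, had 136 UMIs (7.21 CPM) in 2502 60TM microglia and 148 UMIs (11.1 CPM) in 2108 WT microglia, a ratio of 0.653 (0.513 to 0.830). Microglia held 91.3% of its molecules over the named classes in 60TM and 94.9% in WT. The ratio was 0.609 (0.394 to 0.943) in the cluster led by Ccl4, 0.648 (0.424 to 0.981) in the cluster led by P2ry12 and 0.917 (0.567 to 1.48) in the cluster led by Rgs1. A cluster led by Ifi204, with 320 60TM cells and 12 WT cells, had 5.19 CPM in 60TM. Slc29a1 was nearly equal in microglia, with 71.4 CPM in 60TM and 70.8 CPM in WT (ratio 1.01, 0.928 to 1.10), and was highest in border macrophages (141 CPM in 60TM and 150 CPM in WT). Adora1 had 40 UMIs in 60TM microglia and 10 in WT (ratio 2.84, 1.40 to 6.37), at 2.12 and 0.746 CPM, far below its 73.9 and 72.5 CPM in oligodendrocytes. Free RNA was estimated at 3.18% of microglial UMIs in 60TM and 3.86% in WT, and its part in these Adora1 counts was not tested. In microglia 1 of 5 measured genes was called higher and 1 lower, where 3.76% and 3.38% of all measured genes were.

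**Figure D4:**
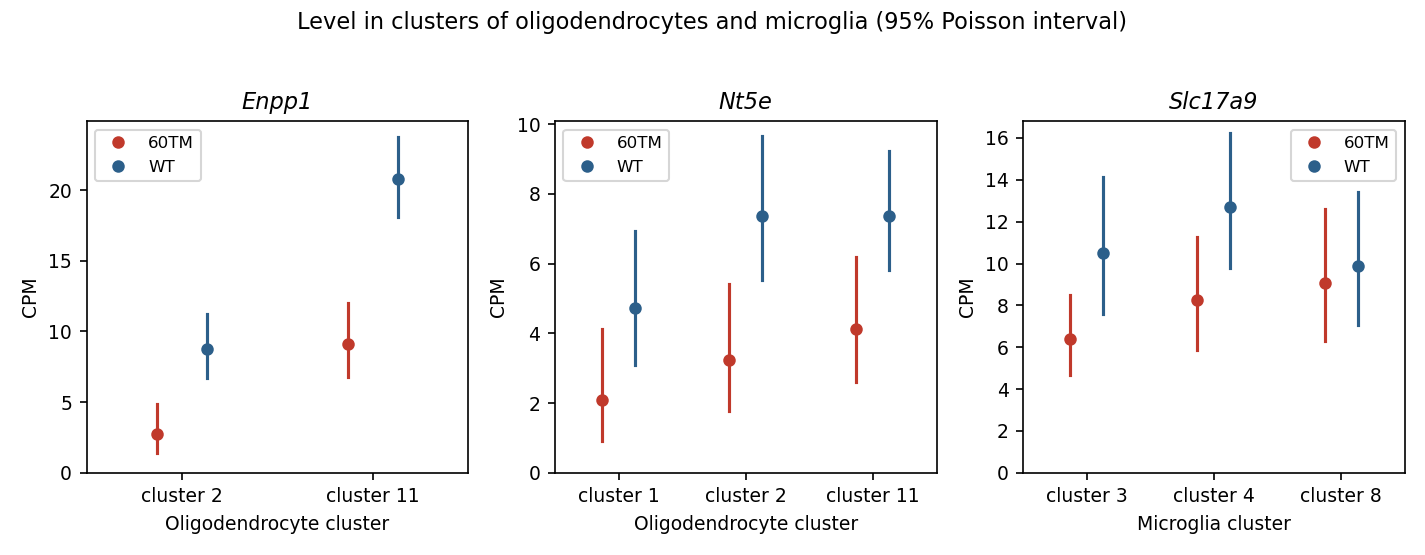
CPM with 95% Poisson intervals for Enpp1 and Nt5e in oligodendrocyte clusters and Slc17a9 in microglial clusters, 60TM in red to the left of WT in blue, for clusters with at least 20 UMIs of the gene over both libraries and 50 cells in each. Clusters 1, 2 and 11 are led by Tac1, Ptgds and Serpinb1a, and clusters 3, 4 and 8 by Ccl4, P2ry12 and Rgs1; each 60TM point lies below its WT point, with the Nt5e intervals in cluster 1 and the Slc17a9 intervals in cluster 8 overlapping most.

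Panx1 was mainly a gene of maturing cells. Committed oligodendrocyte precursors had the highest level, 133 CPM in 60TM and 160 CPM in WT (ratio 0.830, 0.693 to 0.993), followed by immature neurons (39.6 CPM in 60TM and 41.8 CPM in WT). Oligodendrocyte precursor cells (OPCs) had 34.0 CPM in 60TM and 36.6 CPM in WT, and mature oligodendrocytes 0.655 CPM in 60TM and 0.562 CPM in WT, so the level peaked at the committed stage and was near 0 in mature cells of both libraries. Its 11.6 CPM in the Lcn2 astrocyte cluster was below that of all 3 earlier classes. Adora1 was highest in OPCs, at 143 CPM in 60TM and 142 CPM in WT (ratio 1.004, 0.777 to 1.30). Neurons followed oligodendrocytes with 62.3 CPM in 60TM and 41.7 CPM in WT (ratio 1.49, 1.02 to 2.21), on 113 and 81 cells. P2ry1 was highest in Cajal-Retzius cells, early-born neurons of the marginal zone, with 50.7 CPM in 60TM and 43.1 CPM in WT (ratio 1.18, 0.697 to 1.96), and next in OPCs in 60TM (18.7 CPM, 22 UMIs), with 16.1 CPM (11 UMIs) in WT OPCs. Enpp1 was highest in border macrophages in 60TM (35.6 CPM, 26 UMIs), against 21.8 CPM (10 UMIs) in WT, with an interval of the ratio from 0.763 to 3.80. Pericytes rested on few molecules, with 2 Enpp1 and 2 Nt5e UMIs in 57 60TM cells and 14 and 7 UMIs in 72 WT cells, and their cluster also carried the fibroblast genes Col1a2 and Slc6a13.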

How the data were processed

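Single-cell RNA was measured in 1 library per genotype with the 10x Genomics 3' kit version 3. The deposited matrices hold raw UMI counts per gene and barcode; per the submitters' processing notes the authors used Cell Ranger 5.0.0 and the build GRCm38. Gene and barcode names came from their deposited tables. Barcodes with under 500 genes or over 15% mitochondrial UMIs were removed, and Scrublet scores were used to take the top barcodes as doublets, in proportion to the number of barcodes: 610 (6.98%) of 8733 in 60TM and 377 (5.49%) of 6861 in WT. Both libraries were clustered together (scanpy 1.11.5, 2000 variable genes, 30 components, 15 neighbours, Leiden resolution 1, 29 clusters) without the 59 purine genes. Clusters were named from 134 markers of 23 classes: at least 3 markers with a log2 ratio of at least 1 in at least 20% of cells, and the highest median, with a cluster left unnamed where another class came close, depth was low or another class led its genes. The condition that leading genes be present in at least 20% of cells was set after the clusters were seen, and unnamed clusters each held 0.317% to 2.80% of 60TM and 0.526% to 2.17% of WT cells. UMIs were summed per class and scaled to CPM, with exact Poisson, conditional-binomial and Clopper-Pearson 95% intervals. Because each genotype has 1 library, no count model was fitted and no p-value is given. Genes were named by rule: the 9 members wherever they had UMIs, the called genes of the purine list, and the 5 genes nearest Entpd2 by each measure. The members and lists were chosen with earlier results of these data known. The ratio intervals and the calling rule were tested on simulated counts with known ratios, for genes of at least 100 UMIs and with counting error only. Calls on 20 to 100 UMIs, ratios near 1.5-fold and variation between cells were not covered by that test.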

Additional observations from a re-analysis of the deposited data

Results flagged for a closer look

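Panx1 was marked because its 60TM to WT ratio pointed in opposite directions in different cell classes, and this difference between classes was not tested. The ratio was 4.29 in astrocytes, from 80 UMIs in 60TM and 7 in WT. It was 0.387 in Cajal-Retzius cells (8 UMIs in 60TM and 31 in WT), 0.430 in neurons (11 UMIs in 60TM and 17 in WT) and 0.830 in committed oligodendrocyte precursors (223 UMIs in 60TM and 279 in WT). The astrocyte ratio rests on the Lcn2 cluster, and without it was 0.783.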

How the results depend on the processing

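For 25 results, 172 alternative values were computed: 152 stayed within the counting interval of the reported value or, for counts of genes, within 1.5 times of it, 17 moved and 3 reversed. Staying within the interval did not fix the side of 1: Slc29a1 in astrocytes was 1.16 when barcodes were kept from 200 genes upward with a 5% mitochondrial limit (main value 0.657), and Entpd2 Gfap-high over Gfap-zero in WT was 0.926 with states on raw UMIs and 0.947 with states at 4000 UMIs. The ratio of 60TM to WT astrocytes ranged from 0.502 to 0.582 for Entpd2, with its highest value, 0.582, without the Lcn2 cluster. It ranged from 0.325 to 0.491 for Alpl and from 1.23 to 1.504 for Adora1. The Panx1 ratio, 4.29, reversed to 0.783 without the Lcn2 cluster and to 0.518 in the largest astrocyte cluster only, an alternative chosen after seeing the data. Both alternatives leave out the cluster that holds 88.8% of its 60TM molecules. The number of members called higher, 1, was 2 with classes by marker score, with unnamed clusters added and with all variable genes, and 0 without the Lcn2 cluster and in the largest cluster only. With Gfap-high set at 5 or more UMIs, which leaves 171 60TM and 24 WT cells, the Entpd2 ratio of 60TM to WT Gfap-high cells was 0.751 (main value 0.447), and Gfap-high over Gfap-zero in WT was 0.630 (main value 1.05). With levels from thinned cells, Gfap-high over Gfap-zero in 60TM was 0.998 for Entpd2 (main value 0.829) and 0.569 for Panx1 (main value 7.11). Panx1 Lcn2-positive over Gfap-high was then 7.06 (main value 1.87), or 3.42 with states on raw UMIs. The thinned Panx1 values rest on 5 of 306 Lcn2-positive, 1 of 432 Gfap-high and 2 of 492 Gfap-zero 60TM cells with a UMI. The cause of these shifts was not tested. No paired analysis was possible because each genotype has 1 library, and no replicate could be left out. Depth limits Nt5e, Enpp1 and Slc17a9 in astrocytes, which had at most 19 UMIs in either library.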

Other observations

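In endothelial cells, the ectoenzyme gene Alpl and the transporter gene Slc29a1 had lower levels in 60TM. The share of all measured endothelial genes called lower was not computed, so these values are a description of the genes named. Besides Alpl, Slc29a1 had 34 UMIs (25.6 CPM) in 193 60TM cells and 38 UMIs (51.9 CPM) in 131 WT cells, a ratio of 0.494 (0.302 to 0.806). Median depth was 5422 UMIs per cell in 60TM and 4231 in WT endothelial cells. In immature neurons Slc29a1 had 49.95 CPM in 60TM and 68.8 CPM in WT (ratio 0.726, 0.569 to 0.923).

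Enpp1 in microglia had a ratio of 1.06 (0.786 to 1.43) in the class as a whole. In the cluster led by P2ry12 it had 48 UMIs in 841 60TM cells and 27 UMIs in 997 WT cells (ratio 1.89, 1.16 to 3.15), and in the cluster led by Rgs1 19 UMIs in 60TM and 30 in WT (ratio 0.681, 0.362 to 1.25). The difference between the clusters was not tested.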
